A study of Mus musculus with 4 samples.

Results

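The glutathione, glucuronosyl and sulfo transferases were followed in livers of fetal and maternal mice under food deprivation. Members were all non-control probes of the arrays whose gene name started with Gsta, Gstk, Gstm, Gsto, Gstp, Gstt, Gstz or Mgst (glutathione transferases), Ugt1, Ugt2 or Ugt3 (UDP-glucuronosyltransferases), or Sult with a digit (sulfotransferases). They came to 46 genes on 62 probes, of 28786 genes on 41174 probes in all: 22 glutathione transferases, 13 UDP-glucuronosyltransferases and 11 sulfotransferases. The study compared food-deprived (FD) with control animals of strain C57BL/6J, in fetal liver and in maternal liver, on 4 two-colour Agilent arrays of 1 slide. Total RNA of 5 to 10 biological replicates was pooled, and the pair of arrays per liver carried the same conditions with the dyes exchanged. The series text speaks of pooled RNA of each condition that was dye-swapped, while the titles number pooled samples 1 and 2, so whether both arrays of a liver carried the same pools is not settled. The housing text, with chow and water freely at hand, is the same on the labels of both conditions. How long food was withheld, how old the fetuses and mothers were, and which mothers carried which fetuses is not stated in the sources used here.

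All 3 enzyme classes join a polar group to a foreign or endogenous compound so that it can leave the cell. Glutathione transferases attach the tripeptide glutathione to electrophiles, mostly in the cytosol, and the Mgst enzymes do so in membranes. UDP-glucuronosyltransferases sit in the endoplasmic reticulum and add a sugar acid to bilirubin, steroids and drugs, and sulfotransferases move a sulfonate group from PAPS onto phenols, catecholamines, thyroid hormones, steroids and bile acids. Adult liver is the main site of these reactions, while fetal liver is also a blood-forming organ.

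The genes on which the results turn were read by 60-base probes. The first 30 bases of 6 of them are shown, because each of these 6 genes was called changed in 1 of the livers; all bases are in lower case, and positions are those of the whole probe in mouse build mm7, as the scanner files give them. The Gsta3 probe lay at chr1:21459782-21459841 on the plus strand, and the Gstm1 probe at chr3:107830550-107830609, the Gstt3 probe at chr10:75429872-75429931, the Sult1b1 probe at chr5:87451685-87451744, the Sult1d1 probe at chr5:87492397-87492456 and the Sult2a2 probe at chr7:12414651-12414710, all on the minus strand. The files do not say whether a probe lies in coding or untranslated sequence.
Gsta3: tgacgaggaacggccggatgctctctagtt
Gstm1: gcctgttcctggtggagtagcctccccagg
Gstt3: gttgcttggtatgtcctgactttccaaatt
Sult1b1: gaacaacacttgagttctgcacagacattc
Sult1d1: acacagtatatttttagttttagttcctaa
Sult2a2: taaagaagatctgtgacttcctagggaaaa

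Several members are neighbours. The 7 mu-class genes, Gstm1 to Gstm7, had their probes between 107716471 and 107859231 on chromosome 3, and the 3 theta-class genes between 75429872 and 75488171 on chromosome 10. Another block, between 86827294 and 87512985 on chromosome 5, held 11 genes: the 8 Ugt2 genes with Sult1b1, Sult1d1 and Sult1e1. Members of such families have related sequences, and cross-hybridisation between paralogs was not tested on these arrays. Ugt1a transcripts differ in their first exon and share the others: the brighter of the Ugt1a6b probes lay 111642 bases beyond the other and 6592 bases beyond the Ugt1a1 probe, so which Ugt1a transcripts it reads cannot be told apart.

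The sequence before the transcription start is shown for 5 of the called genes (RefSeq, build GRCm38.p6, 250 bases ending at the start, in the direction of the gene), with matches to an antioxidant response element, written TGACNNNGC, or to the letters TATAAA in capitals, on either strand; where a gene had several windows, one with a match was taken if there was any. These windows lie at chr1:21240335-21240584 (plus strand) for Gsta3, at chr3:108017819-108018068 for Gstm1, chr10:75781423-75781672 for Gstt3, chr5:87538196-87538445 for Sult1b1 and chr5:87569007-87569256 for Sult1d1 (minus strand).
Gsta3: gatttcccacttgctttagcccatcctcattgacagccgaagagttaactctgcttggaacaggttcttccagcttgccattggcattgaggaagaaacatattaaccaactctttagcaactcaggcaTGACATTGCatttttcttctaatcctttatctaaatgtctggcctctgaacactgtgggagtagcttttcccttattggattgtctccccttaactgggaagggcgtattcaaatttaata
Gstm1: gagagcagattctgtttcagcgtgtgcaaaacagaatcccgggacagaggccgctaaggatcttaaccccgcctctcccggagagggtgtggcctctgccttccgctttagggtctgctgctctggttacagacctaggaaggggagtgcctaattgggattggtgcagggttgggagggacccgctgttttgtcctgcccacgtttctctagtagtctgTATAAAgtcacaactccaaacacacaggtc
Gstt3: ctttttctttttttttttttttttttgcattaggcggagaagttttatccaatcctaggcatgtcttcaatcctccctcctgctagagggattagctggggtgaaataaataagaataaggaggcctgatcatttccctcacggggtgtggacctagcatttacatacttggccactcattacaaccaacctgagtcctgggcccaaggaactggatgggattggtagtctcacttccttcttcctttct
Sult1b1: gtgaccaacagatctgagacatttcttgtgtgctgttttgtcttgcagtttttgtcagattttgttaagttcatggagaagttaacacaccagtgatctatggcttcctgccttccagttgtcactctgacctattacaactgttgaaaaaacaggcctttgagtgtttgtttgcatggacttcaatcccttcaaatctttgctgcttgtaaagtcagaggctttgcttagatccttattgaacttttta
Sult1d1: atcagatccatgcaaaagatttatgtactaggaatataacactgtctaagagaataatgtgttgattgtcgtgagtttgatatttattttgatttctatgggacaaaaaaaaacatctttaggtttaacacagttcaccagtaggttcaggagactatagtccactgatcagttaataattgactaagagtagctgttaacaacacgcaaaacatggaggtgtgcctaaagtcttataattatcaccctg

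Promoter windows were at hand for 40 of the 46 members, 51 windows in all. The antioxidant response element letters stood in 4 of these 51 windows (7.84%), against 10.2% of all 32851 windows of this length. The 4 were windows of Gsta3, with TGACATTGC from position -121 relative to the start, Gstm5, Gstm7 and Mgst1. TATAAA stood in 7 member windows (13.7%), against 12.4% of all windows, and in Gstm1 it began at position -30. A direct repeat of the nuclear receptor half-site and the HNF1 palindrome were in none of the member windows, and in 0.0335% and 0.00913% of all. These matches are descriptions of letters and say nothing about binding.

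Values are log2 ratios of FD over control, 1 for each dye orientation. In each pair below, the first value is from the array with control in Cy3 and FD in Cy5 and the second from the dye-swapped array. A probe counted as measured where either condition was well above background on both arrays, and a gene is given by its brightest measured probe. The call higher or lower required a mean of 2-fold or more, with both arrays past 1.5-fold in that direction. The arrays of a liver were treated as a dye swap of 1 pool a condition, so no test was run and no p-value is given; if the pools differed, the spread between arrays also holds the spread between pools. This spread came to an SD of 0.13 on the log2 scale per array over the members in the fetus and 0.19 in the mother, against 0.15 and 0.17 over all genes. Per channel, 53.2% to 69.7% of the spots of genes passed the scanner's test against background, no spot was saturated, and no gene was called when the second array was left unturned.

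In maternal liver, food deprivation went with lower transferase RNA. Of the 43 members measured, 8 were called lower and none higher: the glutathione transferases Gsta1, Gsta3, Gstm1, Gstm6 and Gstt3 and the sulfotransferases Sult1b1, Sult1c2 and Sult5a1. This is 18.6% of the members measured, beside 1.88% of all 16148 genes measured called lower and 1.56% called higher. Below these calls lay a broader shift, with 34 of the 43 members below 0 in the mean, 31 of them (72.1%) on both arrays, against 38.6% of all genes. The median over the members was -0.56, against -0.01 over all genes. In bulk liver RNA, fewer cells of a type and less RNA per cell cannot be told apart.

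**Figure D1:**
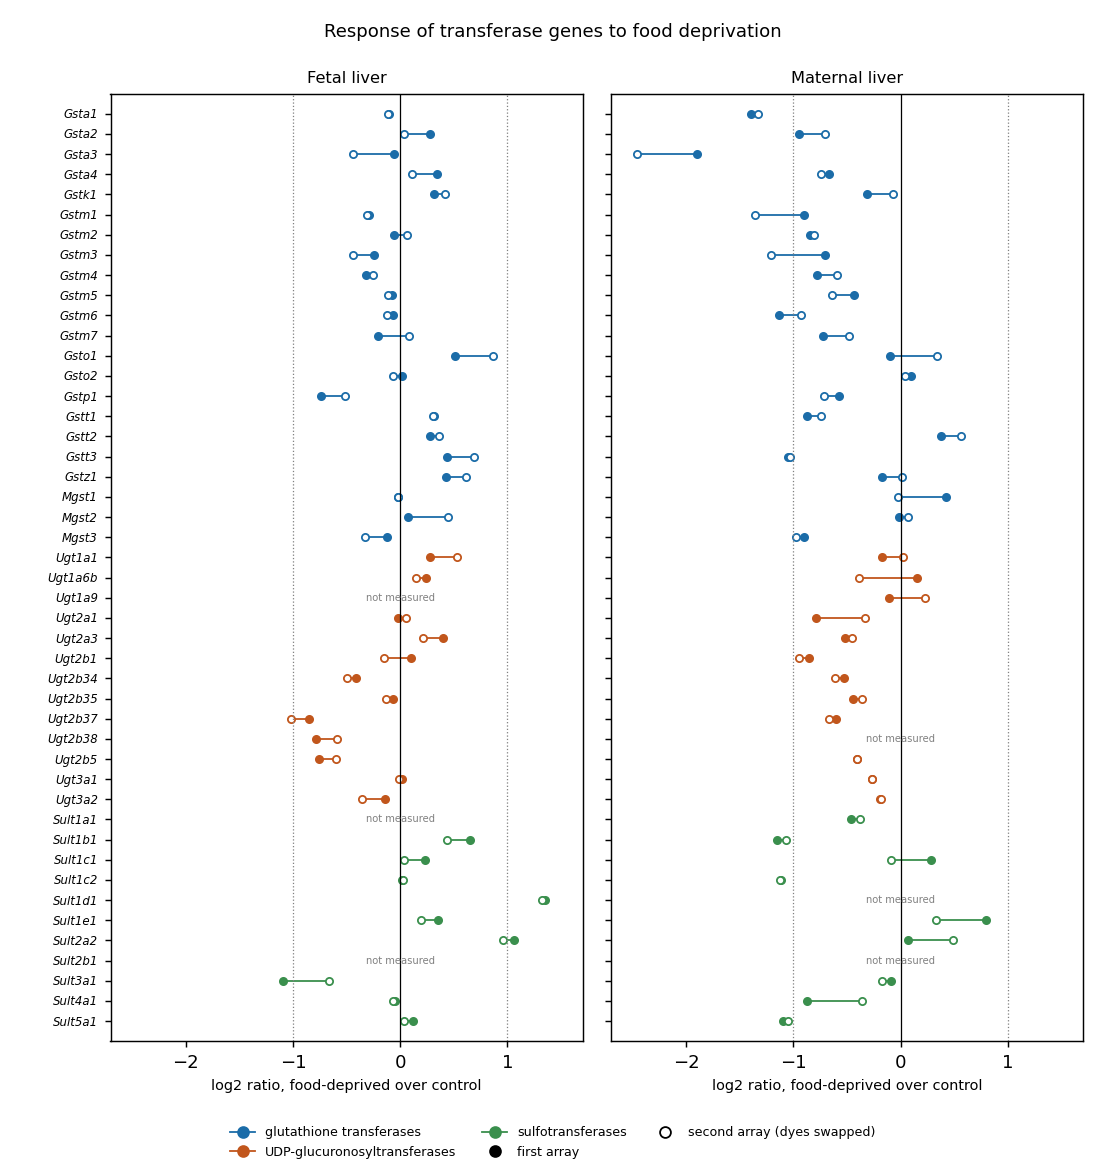
Log2 ratio of food-deprived over control for each of the 46 transferase genes, in fetal liver (left) and maternal liver (right); the filled point is the first array, the open point the dye-swapped array, the line joins them, and dotted lines mark a 2-fold change. Most maternal points lie left of 0, down to -2.46 for Gsta3, while the fetal points lie on both sides of 0 with Sult1d1 and Sult2a2 farthest to the right.

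The glutathione transferases had the lowest maternal median of the 3 classes, -0.70, with 5 of 22 called lower and 17 below 0. Gsta3, an alpha-class enzyme known for conjugating the aflatoxin epoxide in mice, had log2 levels of 15.65 and 15.69 in control and 13.75 and 13.22 in FD maternal liver. Both FD values were below both control values, by -1.90 and -2.46, a mean fall of 4.54-fold, the largest among the members. Its other probe gave -1.59 and -2.28. Gsta1, of the same class, went from 12.27 and 12.84 to 10.88 and 11.51, that is -1.39 and -1.33 (2.56-fold lower). The groups did not overlap for either gene. Here and below, overlap was described only for genes already chosen by the call. It adds no support to those calls. The other alpha-class members, Gsta2 at -0.95 and -0.70 and Gsta4 at -0.67 and -0.74, lay below 0 on both arrays without reaching the call.

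All 7 mu-class genes lay below 0 on both arrays, with a median of -0.82, and 2 were called. Gstm1, the main mu-class enzyme of mouse liver, had control levels of 15.99 and 15.69 and FD levels of 15.09 and 14.34, ratios of -0.90 and -1.36 (2.18-fold lower). Its second probe gave -0.88 on both arrays, short of the call. Gstm6 went from 9.96 and 9.84 to 8.83 and 8.91, with ratios of -1.13 and -0.93 (2.04-fold lower). The FD values of both genes lay below both control values. Either call rested on both arrays: the second array alone left Gstm6 at -0.93, and the first array alone left Gstm1 at -0.90. Of the uncalled glutathione transferases Gstm3 was lowest, at -0.70 and -1.21, and the remaining mu-class means ran from -0.54 (Gstm5) to -0.82 (Gstm2).

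The theta class was divided. Gstt3 had control levels of 13.86 and 13.68 and FD levels of 12.81 and 12.66, ratios of -1.05 and -1.03 (2.05-fold lower), without overlap. Gstt1, which metabolises small halogenated compounds, stood at -0.87 and -0.74, and Gstt2 at 0.38 and 0.56, the highest of the class of glutathione transferases in the mother. These 3 genes lie side by side on chromosome 10. Members near 0 in the mother included Gstz1, the maleylacetoacetate isomerase of tyrosine breakdown (-0.17 and 0.01), Gsto2 (0.10 and 0.04), Mgst2 (-0.01 and 0.07) and Gstk1 (-0.31 and -0.07). Mgst3, a membrane-bound member, was at -0.90 and -0.97, and Gstp1, the pi-class enzyme, at -0.57 and -0.71.

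No UDP-glucuronosyltransferase was called in maternal liver, though 11 of the 12 measured had means below 0, 9 of them below 0 on both arrays, and the class median was -0.41. The lowest was Ugt2b1, at -0.85 and -0.95, and the highest Ugt1a9, at -0.11 and 0.23. The subfamilies differed in their medians. The 3 Ugt1a readings, which include Ugt1a1, the enzyme of bilirubin conjugation (-0.17 and 0.02), centred on -0.08, and none was below 0 on both arrays. The other Ugt1a6b probe, not used as a reading, was below 0 on both, at -0.43 and -0.05. The 5 Ugt2b genes measured centred on -0.57 and the 2 Ugt2a genes on -0.52, all of them below 0 on both arrays, and the Ugt3a pair, enzymes that use sugars other than glucuronic acid, on -0.23. The difference between subfamilies was not tested.

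Of the 9 sulfotransferases measured in maternal liver, 3 were called lower and the median was -0.42. Sult1b1, which acts on thyroid hormones, had control levels of 11.46 and 11.32 and FD levels of 10.31 and 10.26, ratios of -1.15 and -1.07 (2.15-fold lower). Its second probe gave -0.75 and -0.88, and the mean of both probes, -0.96, fell short of the call. Sult1c2 went from 10.07 and 10.28 to 8.97 and 9.16, ratios of -1.11 and -1.12 (2.17-fold lower). Sult5a1 went from 9.52 and 9.64 to 8.42 and 8.59, ratios of -1.10 and -1.05 (2.11-fold lower). FD and control levels did not overlap for any of the 3, and the SD between their arrays was 0.01 to 0.06. The steroid and bile acid enzyme Sult2a2 was at 0.07 and 0.49, and the amine enzyme Sult3a1 at -0.09 and -0.17. A second, dimmer Sult2a2 probe gave -0.52 and -0.16, the opposite direction. Sult1a1, the phenol sulfotransferase, was at -0.46 and -0.38, and the brain-type Sult4a1, lowest of the uncalled ones, at -0.87 and -0.36.

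Sult1e1, the estrogen sulfotransferase, was the highest sulfotransferase in the mother, at 0.80 and 0.33, and its value depended on how dim spots were treated. Its net signals in maternal liver were between 28.3 and 231.3, and the scanner software's own ratios for it were 1.43 and 1.39, which met the call. In the fetus the spot was dimmer still: control was well above background on 1 of the arrays only, the ratios were 0.35 and 0.19, and the software's ratios were 3.30 and 2.01. The sign was the same in each of these, but the maternal minus fetal difference was 0.45 and 0.14 as reported and averaged -1.25 with the software's signals.

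The 8 maternal calls depended on the loess normalisation within each array. With each array centred on its median in place of loess, the same 8 genes lay between -0.22 and 0.88 on the first array and between -4.33 and -1.98 on the second, so that none met the call, although their means, from -2.28 for Gsta3 to -1.02 for Gstm6, kept their direction and stayed at least 2-fold. Each mean holds 1 array of each dye orientation. Why the arrays parted with median centring was not tested.

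**Figure D2:**
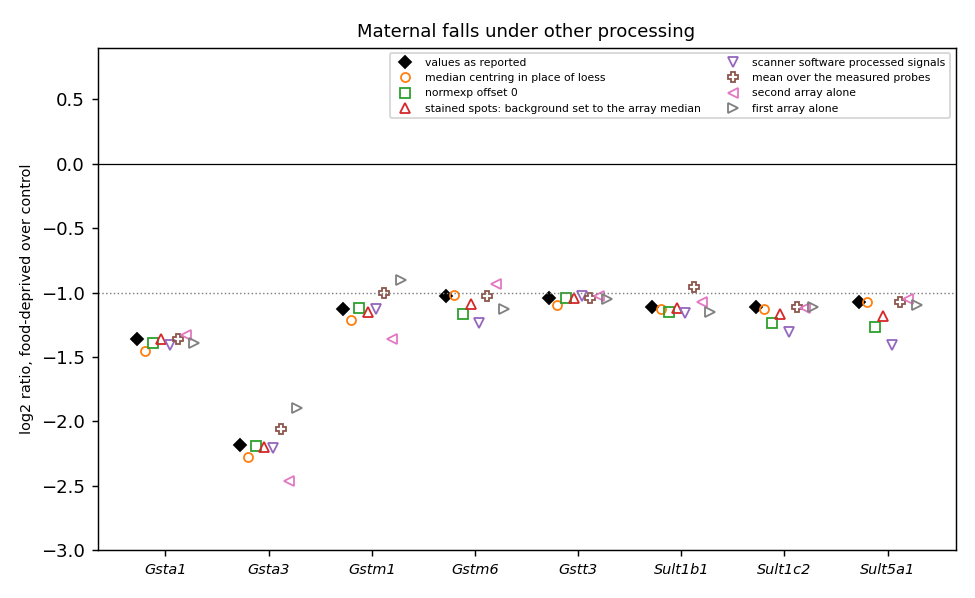
Log2 ratio of food-deprived over control in maternal liver for the 8 transferases called lower, as reported (filled) and under 7 other settings (open symbols, named in the key; settings with 2 arrays show the mean of both); the dotted line marks a 2-fold fall. All values lie below 0, and those above the dotted line are Gstm1 on the first array alone, Gstm6 on the second array alone and the mean of the Sult1b1 probes.

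Some markers of other liver cells moved in the same comparison. Of 8 macrophage and Kupffer cell markers measured, 3 were called lower in FD mothers (Adgre1, Cd5l and Aif1), the median was -0.72, and the summed level on the 2 arrays went from 22800 and 21000 to 13600 and 12400, with no marker below background. Of 8 hepatocyte markers 1 was called lower (Ttr), with a median of 0.25 and summed levels of 243000 and 300000 in control and 331000 and 284000 in FD. Of the markers of the liver lobule's zones, Cyp2f2 (periportal) and Cyp1a2 (pericentral) were called lower and Pck1 (periportal) higher. The median over the 5 periportal markers measured was -0.70, with summed levels of 99600 and 84400 in control and 83400 and 76300 in FD. Over the 8 pericentral markers the median was -0.18, with summed levels of 35900 and 52100 in control and 44800 and 53600 in FD. The summed level of 5 stellate cell and fibroblast markers went from 3180 and 3340 to 1870 and 1750, with Col3a1 called lower and a median of -0.24. Of 5 endothelial markers 1 was called higher (Lyve1), with a median of -0.17. Their summed levels were 3780 and 4110 in control and 4180 and 3610 in FD. No erythroid, bile duct or granulocyte marker was called. What part these cell types had in the transferase values was not tested.

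In fetal liver the transferases went both ways. Of 43 members measured, 2 were called higher and none lower, both sulfotransferases, beside 0.465% of all 18055 genes measured called higher and 0.266% called lower. The median over the members was 0.00, with 22 above and 21 below 0. Means at least 1.5-fold lower were found for 5 of the 43 (11.6%), 3 of them UDP-glucuronosyltransferases, against 0.93% of all genes. In the other direction, 3 of the 43 were at least 1.5-fold higher with each array past 1.2-fold, against 1.77% of all genes. The class medians were -0.02 for glutathione transferases (0.13 with median centring), -0.06 for UDP-glucuronosyltransferases and 0.14 for sulfotransferases. Sult1d1, a sulfotransferase of catecholamines, had fetal control levels of 10.54 and 10.72 and FD levels of 11.89 and 12.04. Both FD values exceeded both control values, with ratios of 1.35 and 1.32, a mean rise of 2.52-fold. Sult2a2 went from 7.53 and 7.42 to 8.59 and 8.38, ratios of 1.06 and 0.96, a mean rise of 2.01-fold, again without overlap. Its call needed both arrays, since the second alone gave 0.96, and its other probe was not above background in the fetus.

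Other fetal changes were smaller. Among sulfotransferases Sult1b1 stood at 0.65 and 0.44, the highest of the uncalled ones, and Sult3a1 at -1.09 and -0.66, the lowest. The second Sult1b1 probe gave 0.20 and 0.11. Sult3a1 was dim in the fetus, with net signals of 88.5 and 245.1 in control and 64.5 and 25.5 in FD. With no offset in the background correction its mean was -1.41 and the gene was called lower, as it was with the scanner software's signals (-1.89). Among glutathione transferases, Gsto1, which reduces dehydroascorbate, was highest at 0.51 and 0.87, and Gstp1 lowest at -0.74 and -0.51. All 3 theta-class genes lay above 0 on both arrays, with a median of 0.32.

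The fetal UDP-glucuronosyltransferases differed in sign by subfamily, a difference that was not tested. All 6 Ugt2b genes had means below 0, 5 of them on both arrays, with a median of -0.57. The lowest was Ugt2b37, at -0.85 and -1.02, whose second probe gave -0.58 and -0.81, followed by Ugt2b5 at -0.76 and -0.60 and Ugt2b38 at -0.78 and -0.59. None met the call. Ugt2b37 met it with the scanner software's signals, at -1.02. Ugt1a1, the highest, stood at 0.28 and 0.53, the Ugt1a6b reading at 0.24 and 0.15, and Ugt2a3 at 0.40 and 0.21. Zone markers of hepatocytes moved in the fetus as well. Of 8 periportal markers 3 were called higher (Sds, Pck1 and Arg1, median 0.79), and of 7 pericentral markers 1 was (Cyp2e1, median 0.04). The summed level over 5 periportal markers, with Pck1 but without Sds and Arg1, went from 17200 and 20200 to 39600 and 48400. Over 8 pericentral markers it also rose, from 6150 and 6870 to 12700 and 10900. The part of these markers in the transferase values was not tested. The Ugt2b genes and Sult1d1 lie in the same block of chromosome 5, so genes with fetal values below and above 0 are neighbours there.

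**Figure D3:**
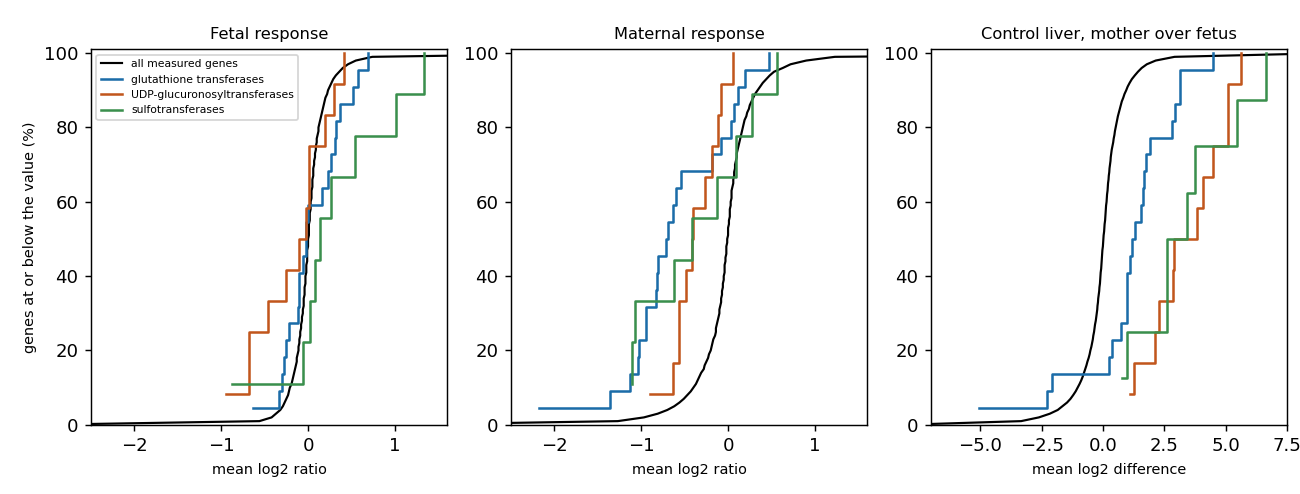
Share of genes (vertical axis, percent) at or below a given mean log2 value (horizontal axis) in the fetal response, the maternal response and the control liver comparison; the black curve is all measured genes and the coloured steps are the 3 enzyme classes. The maternal steps lie left of the black curve, with medians of -0.70, -0.41 and -0.42, the fetal steps lie about it, and the control liver steps lie to its right, with medians of 1.24, 3.37 and 3.02.

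The response of the mother was then set against that of the fetus, within each dye orientation. Among 41 members measured in both, 7 were called lower in the mother than in the fetus and none higher, beside 1.76% and 1.23% of all 15598 genes. Over all genes, 192 were called higher and 274 lower, and 67 and 349 with median centring. They were Gsta1 (-1.28 and -1.22), Gsta3 (-1.84 and -2.02), Gstt1 (-1.19 and -1.05), Gstt3 (-1.49 and -1.71), Sult1b1 (-1.79 and -1.51), Sult1c2 (-1.12 and -1.16) and Sult5a1 (-1.22 and -1.09). In these pairs, a value is the maternal minus the fetal log2 ratio. The maternal mean lay below the fetal mean in 33 of the 41, with medians of -0.61, -0.30 and -0.64 in the 3 classes in the order above, against -0.02 for all genes.

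The 7 genes came to this difference in unlike ways. Gsta1 and Gsta3 were not called in the fetus, at -0.10 and -0.11 and at -0.06 and -0.44. Sult1c2 (0.02 and 0.03) and Sult5a1 (0.12 and 0.04) were dim in fetal liver, with control levels of 6.79 and 6.75 and of 6.97 and 6.93, where a ratio is shrunk by the offset. Gstt1, Gstt3 and Sult1b1 had fetal ratios above 0 on both arrays: 0.32 and 0.31 for Gstt1, 0.44 and 0.69 for Gstt3 and 0.65 and 0.44 for Sult1b1. Gstt1 thus met the call for the difference without meeting it in either liver. The second Sult1b1 probe gave smaller ratios, 0.20 and 0.11 in the fetus and -0.75 and -0.88 in the mother. With median centring, Sult1c2 (-1.14) and Sult5a1 (-1.20) no longer met the call for the difference while Gsta4 and Gstm6 did, and Sult1c2 was not measured under a filter of 10 SD above negative controls. In all, 9 of the 41 members were above 0 on both fetal arrays and below 0 on both maternal arrays, and none the other way round, against 9.97% and 7.32% of all 15615 genes; the fetal means of Sult1c2 and Sult5a1 lie within the SD between arrays. Beside the 5 just named other than Gsta1 and Gsta3, they were Gsta2, Gsta4, Gstk1 and Ugt2a3. Of the uncalled members, the largest differences in each class were those of Gsta2 (-1.23 and -0.74, from a fetal control level of 6.61 and 6.73, and on average -1.36 with offset 0 and -1.61 with the scanner software's signals, both called) and Mgst1 (0.44 and 0.01), of Ugt2b1 (-0.95 and -0.80) and Ugt2b37 (0.25 and 0.35), and of Sult2a2 (-0.98 and -0.48) and Sult3a1 (1.00 and 0.49).

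**Figure D4:**
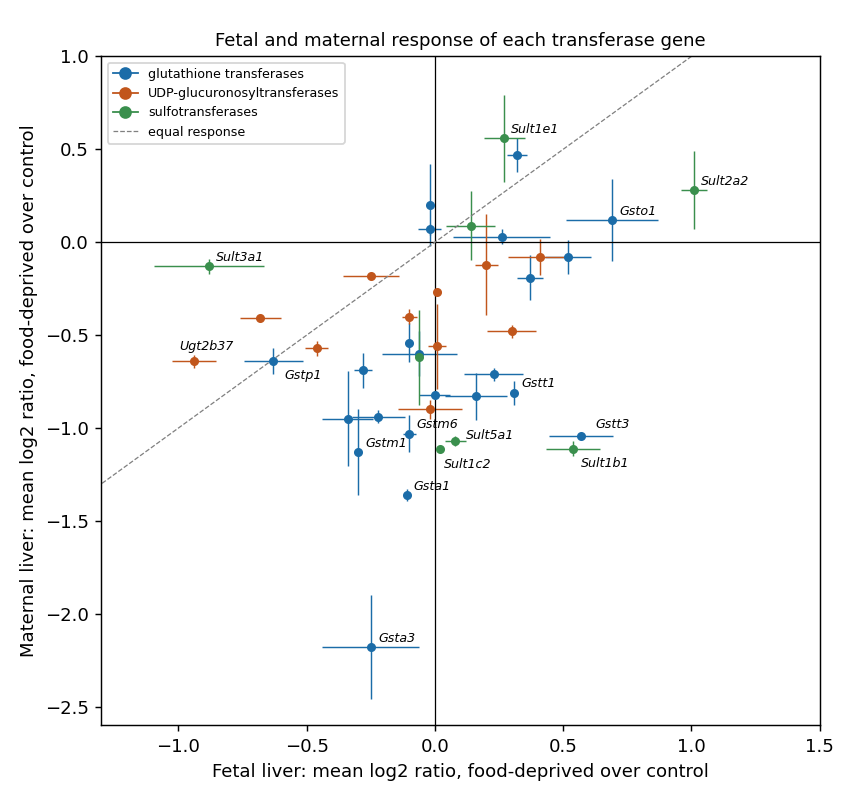
Mean log2 ratio of food-deprived over control in maternal liver (vertical axis) against fetal liver (horizontal axis) for the 41 transferases measured in both; bars reach to the values of the 2 arrays, colours give the class, and the dashed line marks equal responses. Most points (33) lie below the dashed line, with Gsta3 lowest and Gstt3 and Sult1b1 at the lower right.

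Members that were not measured in 1 of the livers are outside these counts. Sult1d1, the fetal riser, had its maternal spot flagged as an outlier on the second array, and its only usable maternal ratio was -0.87. The Sult1a1 spot was flagged on the first fetal array, and the second gave 0.68. The Ugt2b38 spot read at background on the first maternal array (net signals of 5.3 and 2.6, against 650.4 and 1074.7 on the first fetal array). On the second maternal array it was flagged, with net signals of 23395.9 in control and 3982.2 in FD. The maternal arrays thus disagreed, and the maternal level of Ugt2b38 is not known. Ugt1a9 was at background on both fetal arrays. Sult2b1 was at background on all 4 arrays.

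Control livers differed by far more than either response. Of 42 members measured, 33 were called higher in mother than in fetus and 3 lower, beside 9.06% and 10.3% of all 18085 genes. Over all genes, 1638 were called higher and 1854 lower, and 1192 and 2483 without normalisation between arrays. The median over the members was 2.00 (4-fold), against 0.02 over all genes. Here each value is the mother minus the fetus log2 level of the control pool, first from the arrays with control in Cy3 and then from those with control in Cy5. This comparison runs between arrays. A probe counted as measured here where the control of either liver was well above background on both arrays of that liver. Ugt1a9 and Sult1e1 passed by the mother alone, and Ugt1a9 is among the 33 called higher.

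The UDP-glucuronosyltransferases stood highest: all 12 measured were called higher in the mother, with a median of 3.37 (10.3-fold), which was 4.21 with offset 0 and 5.13 with the scanner software's signals. The 12 include Ugt1a9, which was counted through the mother alone. They leave out Ugt2b38, whose only usable difference, from the arrays with control in Cy3, was -3.6. The largest differences were those of Ugt2a3 (5.43 and 5.79), Ugt3a1 (4.99 and 5.20), Ugt3a2 (a mean of 5.08, 33.7-fold) and Ugt2a1 (4.62 and 4.34). Ugt2a3 had control levels of 7.43 and 7.42 in the fetus and 12.85 and 13.21 in the mother, a 48.8-fold difference with no overlap. Ugt1a9, not above background in the fetus, was at least 7.31-fold higher in the mother. The smallest were Ugt1a6b, at 1.15 and 1.03, and Ugt2b34, at 1.67 and 0.84. The second probe of Ugt3a2 gave 2.89 and 2.70, and that of Ugt2b37 2.77 and 2.54 against 4.03 and 3.65, so sizes varied with the probe while the direction did not.

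Of 8 sulfotransferases measured, 7 were called higher in the mother, with a median of 3.02 (8.1-fold), which was 3.85 with offset 0 and 4.62 with the scanner software's signals. Sult2a2 differed most of all members: fetal control levels were 7.53 and 7.42, maternal ones 14.26 and 13.96, a difference of 6.73 and 6.54 (99.4-fold). Its second probe gave 0.70 and 0.78. Next were Sult3a1 (5.32 and 5.58, 43.6-fold), Sult1b1 (3.88 and 3.66, 13.6-fold) and Sult1c2 (3.28 and 3.54, 10.6-fold). Sult5a1 stood at 2.55 and 2.71. By these probes, all 3 sulfotransferases called lower in FD mothers were 6.18-fold to 13.6-fold higher in control mothers than in control fetuses. The second Sult1b1 probe gave a smaller difference, 1.91 and 2.41. Sult1e1, at 0.79 and 0.77, was the measured one that was not called; its fetal control spot was not above background on the first array, and it was called with offset 0 (1.58), with the background of stained spots reset (1.03) and with the scanner software's signals (4.21).

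The glutathione transferases were mixed, with 14 of 22 called higher in the mother, 3 called lower and a median of 1.24 (2.37-fold; 1.93 with the scanner software's signals). The largest differences upward were those of Gsta2 (4.64 and 4.37), Gstt3 (3.13 and 3.16), Gsta1 (2.99 and 3.28) and Gstk1 (3.07 and 2.77). Gsta3 and Gstm1, both called lower in FD mothers, differed less between the control livers, at 1.14 and 1.24 and at 1.91 and 1.38. Gstm6 differed by 1.84 and 1.67, and Gstt1 by 0.39 and 0.34. The 3 called lower were Mgst2, a membrane enzyme that can make leukotriene C4, with control levels of 11.87 and 11.73 in the fetus and 6.83 and 6.67 in the mother (33.1-fold lower), Gstm5 (-2.22 and -2.33, 4.83-fold lower) and Mgst3 (-2.02 and -2.10, 4.18-fold lower). One further Mgst3 probe gave -0.17 and -0.16. Gstm5 was the mu-class gene with the opposite direction to 5 called neighbours of its cluster.

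**Figure D5:**
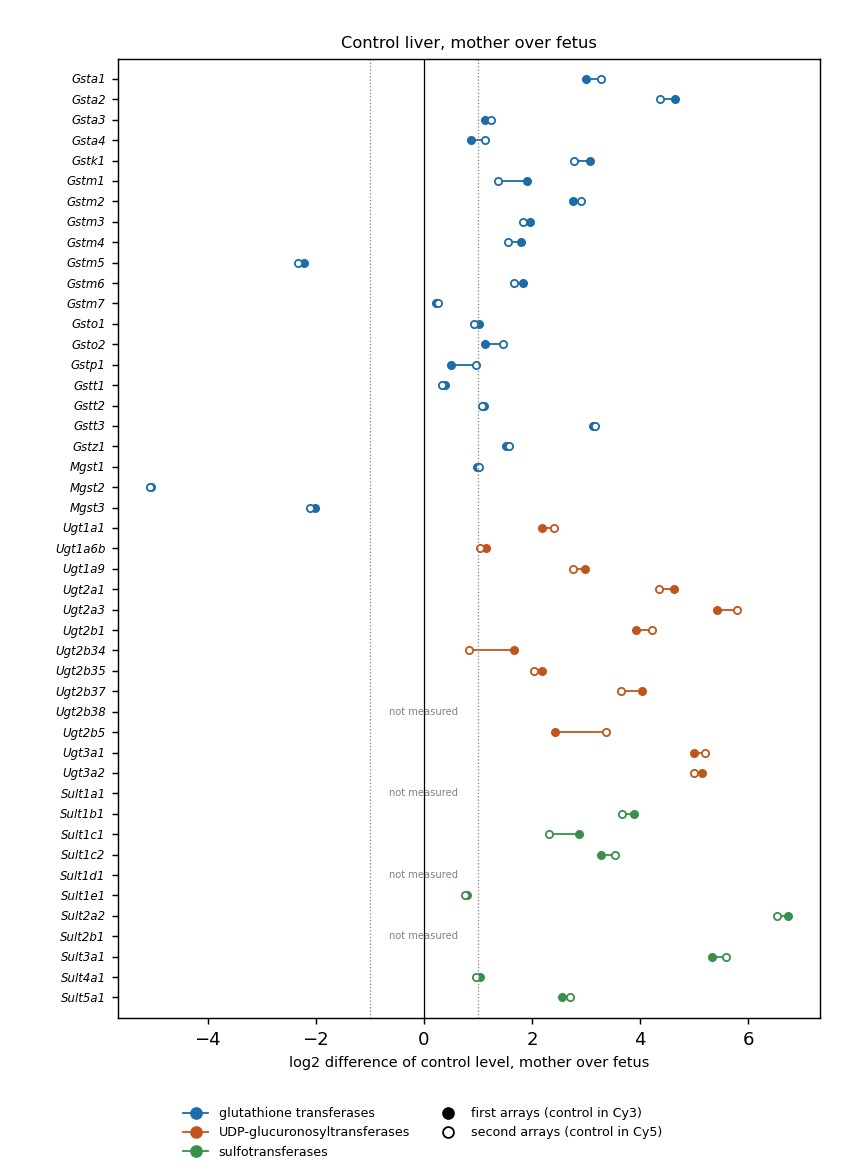
Difference of the log2 control level, mother over fetus, for each transferase gene, from the arrays with control in Cy3 (filled) and in Cy5 (open); dotted lines mark 2-fold. Nearly all genes lie right of 0, up to 6.73 for Sult2a2, and Mgst2, Gstm5 and Mgst3 lie left of it.

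Blood cell markers moved with this comparison. All 11 erythroid markers measured were called lower in the control mother, with a median of -3.59 and summed levels of 149000 and 151000 in the fetus against 15000 and 13700 in the mother. All 4 granulocyte markers measured were lower too (73800 and 68800 against 1270 and 1220). Of 8 hepatocyte markers measured, 1 was called higher (Hnf4a), with a median of 0.21 and summed levels of 201000 and 297000 against 243000 and 300000. Markers of the lobule's zones were higher in the mother, with 6 of 8 pericentral ones called higher (median 2.55) and 4 of 5 periportal ones (median 2.21), beside a median of 2.00 for the transferases. The part of cell composition in the transferase values was not tested.

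Genes that supply the 3 reactions were read from lists. Of 14 genes of glutathione synthesis and recycling measured in the mother, 1 was called lower and 2 higher. Chac2, which breaks down glutathione, was at -1.23 and -1.33, Glrx, a glutaredoxin, at 0.97 and 1.09, and Oplah, the oxoprolinase of the glutathione cycle, at 1.15 and 1.47. Gclc, the catalytic subunit of the rate-limiting enzyme of glutathione synthesis, was at -0.97 on both arrays and was not called. In the fetus 1 of 15 was called: Cth, which makes cysteine, at 1.62 on both arrays. None of 12 genes of UDP-glucuronate supply and none of 13 of PAPS supply and sulfate handling was called in either response. The second list counts 1 gene under 2 names, Impad1 and Bpnt2. Their maternal medians were -0.14 and -0.13.

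Among 12 exporters and organic anion carriers, Abcb1b (0.95 and 1.29) and Slco1a4 (1.41 and 1.00) were called higher and Slco1a1 (-1.48 and -1.22) lower in the mother, and Slco1b2 (0.90 and 1.21) higher in the fetus. Of 15 regulators of these genes, Ahr, the dioxin receptor (-0.98 and -1.20), and Esr1, the estrogen receptor (-1.43 and -1.38), were called lower in the mother and none in the fetus. Nfe2l2, which codes for NRF2, stood at -0.53 and -0.38. Of 15 other genes known as NRF2 targets, Me1 was called higher in the mother (1.23 and 0.97) and Osgin1 lower (-2.51 and -2.24), with a list median of -0.21. In the fetus none was called, and the list median was -0.35. Srxn1 was called for the difference of the responses (1.53 and 1.43). Of the 12 other conjugating enzymes measured in the mother, the methyltransferases Nnmt (1.54 and 1.30) and Inmt (-1.99 and -1.77) were called. Of the 11 measured in the fetus, Inmt (1.25 and 0.96) and Gnmt (1.08 and 1.23) were called higher.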

How the data were processed

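The deposited scanner files hold intensity values of each spot, its local background and the scanner software's processed signals, and a log10 ratio of red over green, per the file headers. Feature Extraction is given as version 9.5.1.1 in those headers but as 9.5.3.1 in the submitters' processing notes. The values of the deposited series table, entered as a score because of their sign, matched red over green processed signal in size (Pearson r at least 0.9999 over spots). In the 2 columns with FD in Cy5, 45017 of 45018 values are negative (medians -0.92 and -0.88) and in the others none (medians 0.94 and 0.88); only sizes were used, because what the sign stands for is unknown.

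With limma 3.58.1 in R 4.3.3, intensities were background-corrected (normexp, offset 50), normalised by loess within each array (control spots at weight 0) and, for levels, between arrays (Aquantile). Levels are log2 intensities and are not compared between probes; the offset shrinks ratios of dim spots. Flagged spots (215 to 257 gene spots per array) were left out. Where a fold is given as at least, the fetus was set at the lowest signal well above background on its array or at its own, whichever was higher. Titles number pooled samples 1 and 2, each number with 1 dye orientation; a pair of arrays was counted as 1 replicate, which the labels do not settle. The scripts were tested on simulated data. Probe names are those of the files; 58 of the 62 member probes matched a RefSeq accession, all under the same symbol.

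Members and lists were chosen with earlier results of these data known. Named with array values were the members called in either response or in their difference, the uncalled extremes of each class, the 4 largest control differences per class and direction, and supporting genes called in a response; other members were named after their values were seen. Alternatives were other normalisation, background correction, filters, probe choice, thresholds and single arrays.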

Additional observations from a re-analysis of the deposited data

Results flagged for a closer look

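For 6 named transferases, both fetal arrays lay above 0 and both maternal arrays below 0. The difference was not tested. These 6 were named because they were called or were extremes, which favours such a pattern. Of all 41 members measured in both livers, 9 (22%) did the same, against 9.97% of all genes. The fetal and maternal means were 0.16 and -0.83 for Gsta2, 0.31 and -0.81 for Gstt1, 0.57 and -1.04 for Gstt3, and 0.54 and -1.11 for Sult1b1. By its second probe, the Sult1b1 means were 0.15 and -0.82. Gsta2 was dim in the fetus (control levels of 6.61 and 6.73). For Sult1c2 they were 0.02 and -1.11 and for Sult5a1 0.08 and -1.07, fetal values that are near 0 and come from dim spots.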

How the results depend on the processing

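Of 873 values of named members and class medians under alternatives, 656 stayed within the spread between arrays, 217 moved further and 0 called values changed sign; uncalled values did, among them Mgst1 in the difference of the responses (0.22, and -0.18 with median centring) and the fetal glutathione transferase median (-0.02, and 0.13 with median centring). No paired analysis was possible because FD and control shared an array, so each ratio is already within a pair, and the results come from no test. In the mother, the 8 lower calls became 0 with median centring and 20 at a 1.5-fold threshold (1.2-fold on each array), and the 0 higher calls became 1 with the scanner software's signals or the series table (Sult1e1). The maternal median of -0.56 was -0.62 with either of those and -0.53 to -0.45 on single arrays, which called 7 to 8 members lower. In the fetus, the 0 lower calls became 1 with offset 0, with the background of stained spots reset, or with either array alone, 2 with the scanner software's signals or the series table, and 5 at 1.5-fold; the 2 higher calls were 1 to 2 on single arrays. The fetal median of 0.00 was 0.11 with median centring, where all genes stood at 0.09, was -0.02 with the scanner software's signals, the series table or the filter of 10 SD above negative controls, and was 0.02 to 0.03 on single arrays. For the difference of the responses, the 7 lower calls became 13 with the scanner software's signals and 18 at 1.5-fold (8 to 10 on single arrays), and the 0 higher calls became 1 with offset 0, the scanner software's signals or the 1.5-fold threshold, and 0 to 1 on single arrays (Sult3a1). Its median of -0.56 was -0.73 with median centring, where all genes stood at -0.11, and -0.62 with the scanner software's signals. In control liver, the 33 higher calls were 32 to 33 on single arrays, 29 without normalisation between arrays, 31 with the mean of probes and 37 with the scanner software's signals or at 1.5-fold, the 3 lower calls were made under every alternative, and the median of 2.00 was 2.15 with median centring, 2.13 with offset 0, 2.67 with the scanner software's signals, where all genes stood at 0.15, 1.90 without the filter and 1.87 without normalisation between arrays. Over all genes, higher and lower calls were 84 and 48 in the fetus (68 and 23 with median centring, 115 and 73 with offset 0, 233 and 173 with the scanner software's signals, 234 and 174 with the series table, 320 and 168 at 1.5-fold). They were 252 and 303 in the mother (45 and 82, 310 and 397, 663 and 808, 664 and 812, 706 and 899, in the same order). For the difference they were 192 and 274 (493 and 712 with the scanner software's signals, 594 and 935 at 1.5-fold), and in control liver 1638 and 1854 (3954 and 3542, 3187 and 3233). The cause of these shifts was not tested. Signal over background limits what can be said of Sult1e1, Sult2b1 and Ugt1a9. In the fetus it also limits Sult2a2, Sult3a1, Sult1c2, Sult5a1, Sult4a1, Gsta2, Ugt2a1, Ugt2a3, Ugt2b1 and Ugt3a1, and with them the size of their control differences.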
